A study of Mus musculus with 8 samples.

Results

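The data describe the RNA recovered with tagged ribosomes from uninjured mouse skin, the resting state of a series on wound repair. Members were the 3 libraries titled as uninjured, of 8 in all, and no other library entered any value below. Their genotype was AdipoqCreER, in which control elements of the adiponectin gene drive a recombinase that tamoxifen switches on, together with R26-NuTRAP, a reporter at the Rosa26 locus that puts GFP on ribosomes where the recombinase has acted, and all were given tamoxifen. The tissue is labelled skin and the cell type adipocyte. The labels place wounding of the series' mice at 7 to 9 weeks of age, in the resting phase of the hair cycle (telogen), and give no separate age for the uninjured ones. The tamoxifen schedule, the sex, and whether animals were pooled are not stated in the labels. Nothing says that the 3 libraries came from separate animals, so the spread between them may be technical. Fewer adipocytes in the skin and less RNA per adipocyte cannot be told apart in such bulk samples.

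Skin holds a layer of white adipocytes between the dermis and a thin sheet of striated muscle, the panniculus carnosus. These cells store triglyceride, release fatty acids, secrete hormones and complement factors, and take part in host defence and in the hair cycle. Pulling down tagged ribosomes recovers RNA that is bound to ribosomes in the cells that express the tag, so levels are of ribosome-associated RNA, not of total RNA. A pull-down can also carry RNA of untagged cells, so marker genes of other skin cells are given beside those of adipocytes.

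The libraries held 8653671, 17751689 and 7883909 counts for replicates 1, 2 and 3. Levels between genes are given as transcripts per 1000000 (TPM), here the count per kilobase of the gene's listed length scaled to a total of 1000000 in each library. Differences between libraries of the same gene are given as counts per 1000000 (CPM), scaled by trimmed mean of M values (TMM) over the 3 libraries. Of 53700 gene identifiers, 14266 reached 1 CPM in all 3 libraries, 11689 of them protein-coding. On the length-scaled side, 14013 genes reached 1 TPM in all 3, and their median was 9.88 TPM with quartiles of 3.93 and 30.4 TPM. Of 21929 protein-coding identifiers, 10381 reached 1 TPM in all 3. That is the share to set beside the counts of list members at 1 TPM below. Protein-coding genes held 96.2% to 97.1% of counts. A count of 3, the limit that a count of 0 allows, stood at 0.169 to 0.381 CPM, which covers counting error only.

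The RNA was concentrated in few genes. The single highest gene held 5.03% ± 0.641 of a library's counts (SD, n = 3), the highest 10 held 15.98% to 19.83% and the highest 100 held 32.6% to 36.3%. Between 342 and 432 genes made up 50% of the counts of a library, and 4461 to 4880 made up 90%. On the TPM scale 7 genes had a mean of 10000 or more, 103 had 1000 or more, and these 103 held 45.4% of the total.

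All 4 adipocyte markers were present in every library. Cfd, which encodes the complement protease adipsin, was the highest gene of all at 99392, 103063 and 129173 TPM in replicates 1, 2 and 3. Fabp4, the fatty acid carrier of adipocytes, was at 6995, 10781 and 6285 TPM and ranked 10. Adipoq, the hormone adiponectin whose gene drives the recombinase, was at 6986, 6885 and 7182 TPM and ranked 12. Plin1, the coat protein perilipin of the lipid droplet, was at 368, 321 and 346 TPM and ranked 377. Fabp4 was highest in replicate 2, while Adipoq and Plin1 kept close values in the 3 libraries. Adipoq ranked 12 in replicates 1 and 2 and 11 in replicate 3. The listed length is that of all exons merged, 4489 bases for Fabp4 and 4649 for Plin1, against median transcript lengths of 896 and 1294 bases in an independent annotation. With those transcript lengths Fabp4 ranked 4 and Plin1 190, so their TPM are low values in this sense, while Adipoq ranked 15 and Cfd stayed at 1. In the deposited table Adipoq (ENSMUSG00000022878.6) spans chromosome 16 from 22965286 to 22976778 on the plus strand and Cfd (ENSMUSG00000061780.7) chromosome 10 from 79726687 to 79728489, also plus. Fabp4 (ENSMUSG00000062515.4) spans chromosome 3 from 10269148 to 10273636 and Plin1 (ENSMUSG00000030546.15) chromosome 7 from 79369966 to 79382651, both on the minus strand. Which build these positions belong to could not be settled. For Adipoq, Cfd and Plin1 they do not match the GRCm38.p6 promoter coordinates given below.

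The 100 bases before the start of 4 adipocyte genes are shown because these genes run from the highest level of all to a rank of 377 and differ in CCAAT boxes. They come from the RefSeq promoter table (GRCm38.p6), run 5′ to 3′ on the gene's strand, and have each CCAAT, or ATTGG where the box lies on the other strand, in capitals. Retn encodes the hormone resistin. The coordinates are chr10:79890753-79890852 (plus) for Cfd, chr16:23146436-23146535 (plus) for Adipoq, chr8:3655670-3655769 (plus) for Retn and chr7:79732777-79732876 (minus) for Plin1. Only symbols with a single promoter entry were matched, 22862 of 27025, so genes with several entries are outside the promoter values given here. Fabp4 was not among the matched symbols, which does not show that it is absent from the full RefSeq table.
Cfd: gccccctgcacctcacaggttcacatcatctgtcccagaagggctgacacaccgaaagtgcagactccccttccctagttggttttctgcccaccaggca
Adipoq: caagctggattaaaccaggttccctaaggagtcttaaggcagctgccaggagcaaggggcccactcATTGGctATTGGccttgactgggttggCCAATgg
Retn: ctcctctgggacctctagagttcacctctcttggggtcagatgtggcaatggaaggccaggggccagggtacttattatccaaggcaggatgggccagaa
Plin1: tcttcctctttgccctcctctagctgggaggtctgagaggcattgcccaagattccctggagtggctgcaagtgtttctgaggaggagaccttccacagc

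Adipoq had 3 such matches, whose first bases lay 34, 27 and 7 bases before the start, and Cfd, Retn and Plin1 had 0. The 13827 protein-coding promoters matched are those of genes with a single promoter entry. Of these, 21.8% had at least 1 match in these 100 bases and 0.600% (83) had 3 or more. A match is a description of letters and no test of a factor's binding.

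Promoter letters differed with the level of the gene. In the 300 bases from 250 before to 50 after the start, the GC box GGGCGG (either strand) was in 27.6% of the 6723 promoters of genes below 1 TPM. It was in 64.9%, 67.1% and 65.5% of those at 1 to 10, 10 to 100 and 100 to 1000 TPM. Among the 53 matched genes at 1000 TPM or more it was in 45.3% (24), near the 47.1% of all 13827. The letters TATAAA of the TATA box, anywhere in the 300 bases on either strand, ran the other way in the middle of the range. They were in 19.9% below 1 TPM, 7.50% at 1 to 10, 7.15% at 10 to 100, 11.4% at 100 to 1000 and 18.9% (10 of 53) at 1000 or more, against 13.7% of all. Fewer promoters had TATAAA on the gene's strand with its first base 40 to 20 bases before the start. These were 4.51%, 1.47%, 1.57%, 3.66% and 5.66% (3 of 53) in the same order, against 3.10% of all. CCAAT (either strand) was in 39.3% of all these promoters and in 37.6% to 45.3% in each range of level. The C/EBP-type motif TTGCNNAA (either strand) was in 10.1% of all, in 8.24% to 11.8% in each range below 1000 TPM and in 5.66% (3 of 53) at 1000 TPM or more. Genes of different level also differed in listed length, with medians of 5112 bases at 1 to 10 TPM and 1022 bases at 1000 or more, and no test was made.

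Beside Cfd, the 30 highest genes with an established symbol were led by secreted and antioxidant proteins. Hp, the haemoglobin-binding plasma protein haptoglobin, was at 22263, 30931 and 25215 TPM. Gpx3, a secreted glutathione peroxidase, was at 14728, 23084 and 24529 TPM, lowest in replicate 1. Car3, the carbonic anhydrase typical of fat and slow muscle, was at 16867, 18767 and 20237 TPM. Dbi, which encodes a carrier of acyl-CoA, was at 16254, 18680 and 14581 TPM. The ranges of Car3 and Dbi over the libraries overlapped, but Car3 was above Dbi within each library. That order rests on the listed lengths. With median transcript lengths Dbi had a mean of 25300 TPM (rank 2) and Car3 one of 17244 TPM (rank 5), while Hp ranked 6. Wfdc21, a small protein of the whey acidic protein type, was at 11420, 22416 and 10200 TPM, and Ifi27l2a, an interferon-inducible gene, at 15904, 9862 and 8177 TPM. Retn was at 8460, 9244 and 9971 TPM.

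The ranks from 9 to 30 held genes of several kinds. Secreted proteins were Lrg1 (7265, 9271 and 6558 TPM), the lipid carrier Apoe (5353, 6223 and 5334) and the iron carrier Trf, transferrin (4684, 3493 and 4450). Enzymes were the glutathione peroxidase Gpx1 (5006, 5631 and 5857 TPM), the microsomal glutathione transferase Mgst1 (4538, 4182 and 7098), the cysteine dioxygenase Cdo1 (5362, 4069 and 6359) and the desaturase Scd1 (5547, 3380 and 3956). Small subunits of the respiratory chain were Cox8a (4705, 5052 and 5117 TPM), Cox6b1, Cox6a1, Uqcr10 and Uqcr11. The order below Hp is loose, since ranks moved between libraries. In replicates 1, 2 and 3, Ifi27l2a ranked 5, 8 and 8, and Cdo1 ranked 15, 23 and 15. The others were B2m, Gsn, Lgals1, Adig, Thrsp, Cidec, Apoc1 and Mt1. Of the 30, Mt1 (3432, 4706 and 1199 TPM) and Thrsp (2908, 1885 and 7273 TPM) were the ones that differed by over 3-fold between libraries.

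**Figure D1:**
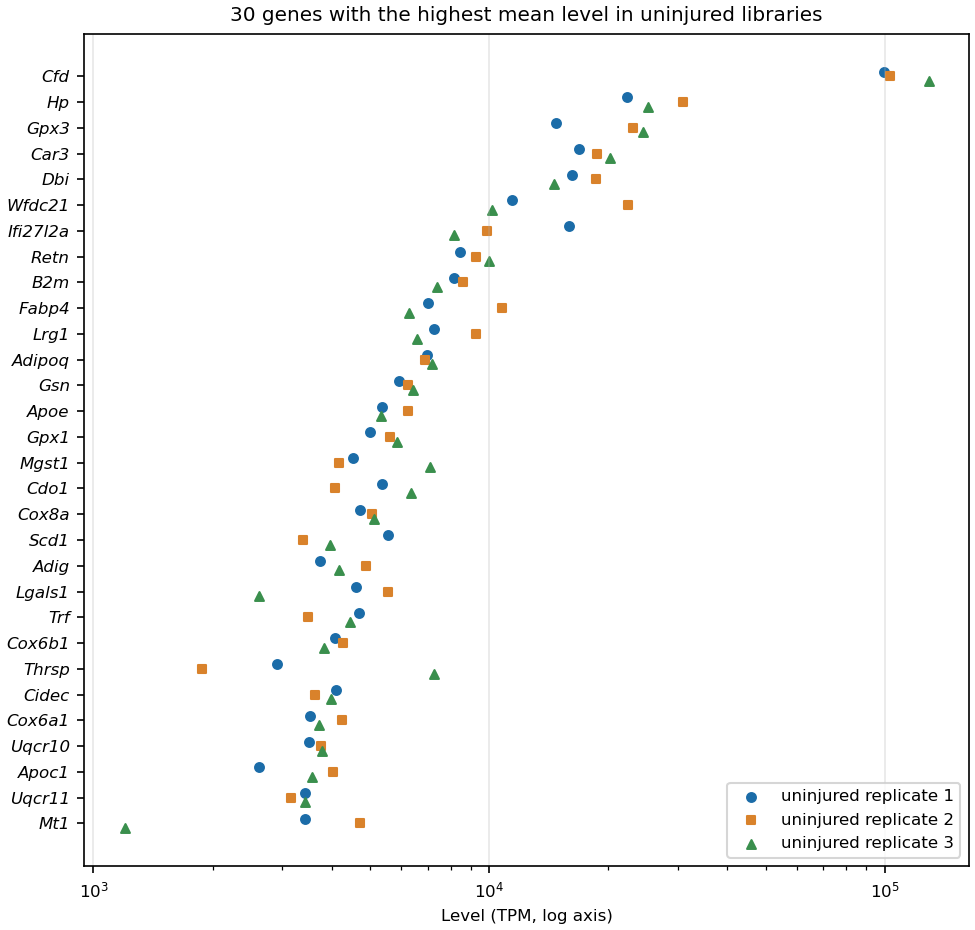
Level (TPM, log axis) of the 30 established genes with the highest mean, one row per gene and one point per uninjured library (circle, square and triangle for replicates 1, 2 and 3). Cfd stands apart at 99392 to 129173 TPM, and Thrsp and Mt1 show the widest gaps between libraries.

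Most lipid storage genes were measured in every library. All 20 genes of the adipocyte identity list reached 1 TPM in every library, with a median of 415 TPM and a lowest member, the receptor Acvr1c, at 19.6 ± 3.80 TPM (SD, n = 3). Of 21 lipid droplet proteins, 19 reached 1 TPM, and their median was 66.7 TPM. Cidec, which joins droplets into a single large one, was at 4098, 3630 and 3978 TPM. G0s2, an inhibitor of triglyceride lipase, was at 2509, 3222 and 1700 TPM, highest in replicate 2 and lowest in replicate 3. Cav1, the scaffold of caveolae, was at 1033, 857 and 871 TPM. Cideb, a liver member of the Cidec family, had no count in any library, where 3 counts would be at most 0.381 CPM.

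The machinery of triglyceride breakdown was present with 18 of 22 genes and a median of 70.2 TPM. Pnpla2, the first lipase of the sequence, was at 1561, 1182 and 1600 TPM. Ces1d, a carboxylesterase whose reads may be shared with Ces1f, was at 1151, 773 and 1489 TPM, and Mgll, the last lipase, at 367, 383 and 360 TPM. Lipe, the hormone-sensitive lipase, was at 198, 233 and 212 TPM. Of the adrenergic receptors that govern the sequence, Adrb3 was at 209, 203 and 187 TPM, while Adrb1 and the inhibitory Adra2a were below 1 TPM in all 3 libraries (0.389 ± 0.155 and 0.315 ± 0.0947 TPM). Lipe, Adrb3 and Adrb1 were chosen after their values were seen.

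Fatty acid synthesis was represented by 24 of 24 listed genes at a median of 70.9 TPM. Scd1, which shares sequence with Scd2, Scd3 and Scd4, was the highest member at 4294 ± 1122 TPM. Slc25a1, the citrate carrier that feeds the pathway, was at 1027, 774 and 1841 TPM, and Fasn, the synthase itself, at 557, 415 and 1001 TPM. Both were highest in replicate 3. The lowest member was the desaturase Fads2 at 1.21 ± 0.179 TPM. Triglyceride synthesis had 17 of 18 genes at a median of 74.8 TPM. Dgat2, which adds the last acyl chain, was at 2120, 1219 and 2150 TPM, and Gpd1, which supplies the glycerol backbone, at 870, 633 and 1586 TPM. Agpat2, whose loss causes lipodystrophy, was at 745, 438 and 869 TPM, and Pck1, the glyceroneogenic kinase of fat, at 483, 489 and 363 TPM.

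Fatty acid uptake had 20 of 21 genes at 1 TPM or more, with a median of 22.4 TPM. After Fabp4 its highest members were the scavenger receptor Cd36 (978, 771 and 798 TPM), the transporter Slc27a1 (563, 428 and 945) and the lipoprotein lipase Lpl (477, 449 and 531). Slc27a2 had no count. Glucose uptake and insulin signalling had 25 of 25 at a lower median of 18.3 TPM. Slc2a4, the insulin-responsive glucose carrier, was at 115, 80.6 and 159 TPM, Pygl, the glycogen phosphorylase, at 64.7, 65.9 and 166 TPM, and Akt1 at 69.7, 51.0 and 70.8 TPM. Pygl stood above the other libraries in replicate 3.

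Fatty acid oxidation and respiration were strongly represented on the nuclear side. Of 20 oxidation genes, 19 reached 1 TPM with a median of 104 TPM, led by the electron transfer flavoproteins Etfa (590 ± 60.6 TPM) and Etfb (520 ± 95.0) and the dehydrogenases Acadl (458 ± 46.3) and Acadm (315 ± 70.8). The muscle form of the carnitine transferase, Cpt1b, was the exception at 0.174 ± 0.104 TPM. All 30 nuclear respiratory chain genes reached 1 TPM, and their median of 559 TPM was the highest of the 42 lists. The 15 mitochondrially encoded genes summed to 1104, 1207 and 895 TPM. They took 0.0562%, 0.0682% and 0.0452% of counts in replicates 1, 2 and 3. These levels are of RNA recovered with tagged ribosomes, so the total level of mitochondrial RNA in the cells was not measured. The nuclear list summed to 28292, 29805 and 28893 TPM.

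Thermogenic genes were mostly low. Ucp1, the uncoupling protein of brown and beige fat, which was chosen after its values were seen, had 0, 1 and 0 counts in replicates 1, 2 and 3. Of 24 genes on the list, 14 reached 1 TPM, beside 10381 of all 21929 protein-coding identifiers, and the median was 1.76 TPM. The highest were Cox8b at 2227, 1526 and 1090 TPM and Cox7a1 at 426, 188 and 154 TPM, subunits found in muscle as well as in brown fat. Both were highest in replicate 1 and lowest in replicate 3, as the summed level of the skeletal muscle genes given below was, and the part of muscle RNA in their level was not tested. Ckb, a creatine kinase, was at 33.9 ± 3.68 TPM and the calcium pump Atp2a2 at 31.2 ± 7.40.

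Of 25 adipogenic transcription factors, 22 reached 1 TPM with a median of 12.7 TPM. The highest was Cebpb at 454, 362 and 457 TPM, followed by Cebpa at 182, 201 and 182 TPM, the liver X receptor Nr1h3 at 186, 146 and 183 TPM, and Pparg, the master regulator of fat cells, at 189, 121 and 155 TPM. Gata2, which opposes adipogenesis, was lowest at 0.219 ± 0.174 TPM. The median coefficient of variation between libraries (CV, SD over mean of CPM) was 15.2% for the transcription factors at 10 CPM or more and 34.6% for the fatty acid synthesis genes. No test of that difference was made.

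Hormone receptors ranged widely. Of 25, 18 reached 1 TPM with a median of 10.3 TPM. Ghr, the growth hormone receptor, was highest at 469, 379 and 466 TPM. Ptger3, a prostaglandin E2 receptor, was at 245, 105 and 229 TPM, and Oxtr, the oxytocin receptor, at 107, 26.1 and 165 TPM, both lowest in replicate 2. Ffar2, a receptor of short-chain fatty acids, was at 78.7, 109 and 52.3 TPM. The incretin receptor Gipr was lowest at 0.0539 ± 0.0482 TPM.

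Among 25 adipokines and secreted hormones, 23 reached 1 TPM with a median of 23.4 TPM, and Cfd, Hp, Retn and Adipoq led. The lowest was Itln1 with 0, 1 and 0 counts. Lep, which encodes leptin and was chosen after its values were seen, was far lower at 196, 99.6 and 66.8 TPM and differed by over 2-fold between libraries. Of 26 antimicrobial and innate defence genes, 21 reached 1 TPM with a median of 15.8 TPM. After Hp and Wfdc21 its highest members were the complement components C3 (455, 512 and 700 TPM) and C4b (251, 215 and 194 TPM). The antimicrobial protein Ltf was lowest at 0.0569 ± 0.05 TPM. Paraoxonases, which protect lipids from oxidation, were all present: Pon1 at 292, 188 and 464 TPM, Pon3 at 238, 212 and 273 TPM and Pon2 at 71.4, 53.7 and 52.9 TPM.

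Of the basement membrane and pericellular genes, only Sparc was above Col3a1, the highest of the fibrillar matrix genes. Sparc, a collagen-binding protein, was at 1601, 1445 and 1182 TPM, the type IV collagen chains Col4a1 and Col4a2 at 87.8 ± 7.38 and 51.1 ± 3.89 TPM, and the integrin Itgb1 at 74.1 ± 18.6 TPM. Of 26 basement membrane and pericellular genes 20 reached 1 TPM with a median of 9.25 TPM. For 23 fibrillar matrix genes the figures were 20 and 9.03 TPM, led by Col3a1 at 160, 130 and 161 TPM, Timp2 at 46.4 ± 24.5, Dcn at 39.1 ± 15.5 and Col1a1 at 36.4 ± 4.29. Both medians cover all measured members, those below 1 TPM included. The 9.88 TPM median covers only genes at 1 TPM in all 3 libraries, so it is not a like measure. Of 7 platelet-derived growth factor (PDGF) ligands and receptors, 3 reached 1 TPM in all libraries. The ligands Pdgfa (15.8, 15.5 and 10.5 TPM) and Pdgfc (9.09, 6.46 and 5.79) were above the receptors Pdgfrb (1.09, 2.64 and 2.42) and Pdgfra (1.39, 1.95 and 0.820). The libraries of Pdgfa and Pdgfc did not overlap those of either receptor, while the ligands Pdgfd (2.13, 1.23 and 0 TPM) and Pdgfb (1.5, 0.777 and 0.510) did.

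Every matched gene of protein synthesis and export reached 1 TPM. Of 27 secretory pathway genes listed, 25 were matched, with a median of 117 TPM. They were led by Xbp1, the regulator of secretory capacity, at 453 ± 53.9 TPM, and by Spcs1 and P4hb. All 45 cytosolic ribosomal proteins were measured at a median of 150 TPM, from Rplp1 at 840 ± 115 TPM to Rpl13a at 11.1 ± 2.57. Ribosomal protein genes have many processed pseudogenes that can take their reads, and processed pseudogenes held 1.63% to 2.17% of counts, so these levels are uncertain.

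Long noncoding RNAs on a list of mostly nuclear RNAs were also measured, 5 of 10 at 1 TPM with a median of 3.90 TPM. Malat1, which stays in the nucleus, was at 127, 118 and 118 TPM, above the 9.88 TPM median of genes at 1 TPM or more. Neat1, the scaffold of nuclear paraspeckles, was at 30.9, 23.1 and 32.3 TPM. Gas5, at 35.3, 55.5 and 36.2 TPM, is on the list although its spliced RNA is also found in the cytoplasm on ribosomes. Xist, the RNA that coats the inactive X chromosome, was at 0.975, 1.07 and 0.532 TPM. Of 9 X- and Y-linked genes examined, 4 reached 1 TPM, led by Ddx3x at 43.5 ± 8.89 TPM. The Y-linked genes Ddx3y, Kdm5d, Uty and Eif2s3y had 0 to 4 counts each in every library.

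Of 30 Hox and Tbx genes, which mark position along the body, 15 reached 1 TPM with a median of 2.14 TPM, led by Hoxc8 at 80.9, 63.8 and 101 TPM, Hoxd8 at 45.0, 39.5 and 48.7, Hoxc9 at 42.8, 39.3 and 40.9, and Hoxc6 at 35.1, 24.9 and 31.3. Hoxd3 was lowest at 0, 0 and 0.127 TPM. Among 20 imprinted and growth control genes 13 reached 1 TPM with a median of 4.89 TPM. Nnat, an imprinted gene that lies within an intron of Blcap and whose counts are uncertain if strand was not used, was at 1055, 1235 and 571 TPM. The next were H19, Snrpn and Sgce, from 42.5 ± 12.9 to 20.8 ± 2.93 TPM, and Dlk1, the preadipocyte factor, was lowest with 1, 4 and 0 counts. Of 19 clock genes 16 reached 1 TPM with a median of 5.18 TPM, led by Nr1d1 at 63.2, 44.2 and 78.6 TPM and Bhlhe40 at 56.1, 10.6 and 31.6 TPM. Immediate early and stress genes (23 of 26) had a median of 12.01 TPM and were led by the metal-binding Mt1 and Mt2. Replication-dependent histones (5 of 11) had a median of 2.15 TPM and were led by Hist1h2bc at 454, 480 and 419 TPM.

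**Figure D2:**
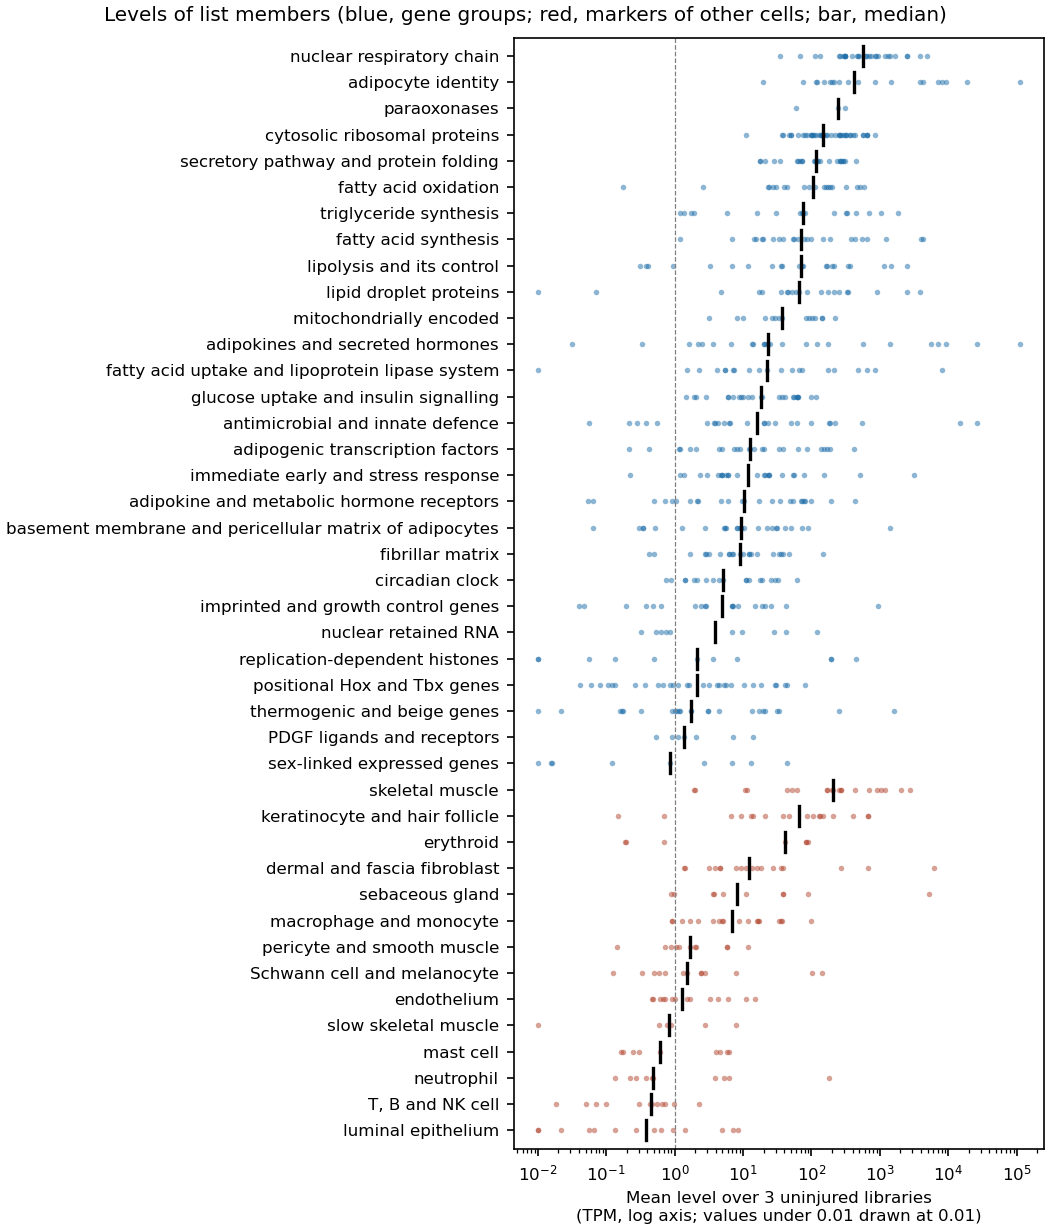
Mean level over the 3 uninjured libraries (TPM, log axis) of every measured member of each list, one point per gene, with gene groups in blue, markers of other cell types in red and a black bar at the list's median. The dashed line marks 1 TPM. Skeletal muscle markers, at a median of 209 TPM, lie among the gene groups of the adipocyte.

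The labelled cell type had its defining markers in every library, and markers of other cells were present too, to very different degrees. All 21 skeletal muscle genes reached 1 TPM, with a median of 209 TPM. Acta1, the actin of striated muscle, was at 4488, 2096 and 1743 TPM, the troponins Tnnt3 and Tnni2 at 2992, 1916 and 1278 and at 1830, 1055 and 726 TPM, and the myosin light chain Mylpf at 1835, 758 and 573 TPM. Each of these was highest in replicate 1 and lowest in replicate 3. The lowest of the list was the calcium channel Ryr1 at 1.90 ± 0.292 TPM. The list summed to 16368, 9328 and 6901 TPM, against 151382, 161265 and 185545 TPM for adipocyte identity. The log2 ratio of both sums was 3.21, 4.11 and 4.75, a mean of 4.02 ± 0.774 (SD, n = 3). That sum rests largely on Cfd, and the log2 ratio of the list medians was 1.09. The separate list of slow muscle genes (2 of 6 at 1 TPM) had a median of 0.834 TPM, with Tnnt1 at 9.68, 7.92 and 6.14 TPM, Myl3 at 2.76 ± 0.971 and Myh7 at 0, 0 and 0.0308 TPM.

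Epidermal genes were also present. Of 18 keratinocyte and hair follicle genes 15 reached 1 TPM with a median of 66.3 TPM. The cornified envelope protein Lor was at 602, 1069 and 378 TPM, Krt10 at 692, 766 and 581, Krt14 at 496, 454 and 268, and Lgals7 at 189, 360 and 71.5 TPM. The list summed to 2697, 3617 and 1873 TPM. Among 10 sebaceous genes, 6 reached 1 TPM with a median of 8.09 TPM. Mgst1, at the top of that list, is expressed in many cells, and the wax synthases Awat1 and Awat2 were at 3.59 ± 2.66 and 0.899 ± 0.760 TPM. Of 13 Schwann cell and melanocyte genes 6 reached 1 TPM with a median of 1.498 TPM, led by Pmp22 at 143 ± 24.6 and the melanin enzyme Dct at 98.8, 143 and 66.0 TPM, while the melanin enzyme Tyr was at 0.128 ± 0.0991.

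Fibroblast, vascular, immune and blood cell markers differed in level. Of 18 fibroblast genes 16 reached 1 TPM with a median of 12.4 TPM. Gsn, an actin-severing protein common to many cells, was at 5915, 6232 and 6435 TPM and Dpt, a dermal matrix protein, at 755, 862 and 422 TPM, while Pdgfra was the lowest of the list. Endothelial markers (5 of 14 at 1 TPM) had a median of 1.27 TPM and were led by Pecam1 at 13.4, 16.9 and 15.0 TPM. Pericyte and smooth muscle markers (6 of 11) had a median of 1.70 TPM, with Acta2 at 13.4, 15.4 and 7.01. Macrophage markers (14 of 18) had a median of 6.99 TPM, led by Lyz2 at 105, 131 and 59.7 TPM and C1qb at 38.8, 50.1 and 22.4. Mast cell (4 of 9), neutrophil (4 of 10), lymphocyte (1 of 12) and luminal epithelial markers (3 of 14) had medians of 0.614, 0.478, 0.455 and 0.389 TPM. The globin genes Hba-a1, Hba-a2, Hbb-bs and Hbb-bt, whose near-identical copies can share reads, were at 41.6 to 89.6 TPM on average and were the 4 of 7 erythroid genes that reached 1 TPM.

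The spread between the 3 libraries was small for most genes. Over 8515 genes with a mean of 10 CPM or more, the median CV was 15.5%, with quartiles of 9.67% and 23.9%, and counting error alone gave a median of 5.06%. The edgeR common biological CV was 26.2%. By level the median CV fell from 32.6% at 1 to 10 CPM to 12.9% at 200 to 1000 CPM and stood at 15.9% for the 91 genes at 1000 CPM or more. Across genes, which are not independent replicates, the log2 CPM of replicates 1 and 2 had Pearson r = 0.954, those of 1 and 3 r = 0.955, and those of 2 and 3 r = 0.927. The number of genes over 2-fold apart was 334, 411 and 579 of 8515 in that order.

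The steadiest genes with an established symbol at 50 CPM or more included a defining adipocyte marker. Plin1 was at 795, 786 and 792 CPM, a CV of 0.583%, which is below the 1.05% of counting error. The scavenger receptor Scarb1, which takes up cholesterol from high-density lipoprotein, was at 109, 108 and 110 CPM. The mitochondrial enzyme Idh3b was at 172, 174 and 173 CPM, and the small GTPase Arf6 at 96.6, 95.8 and 95.96 CPM. Lamtor5, Brk1, Chchd4, Snx12, Srsf6 and Kars made up the 10. Of 3106 genes the lowest 10 are picked from one end of a range, so their CV says little of any one of them.

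At the other end, Fgf9, a fibroblast growth factor, had 6, 37 and 4508 counts (0.669, 2.10 and 589 CPM), so nearly all of its reads lay in replicate 3. Mmd2 (9.81, 13.6 and 133 CPM), Pus10 (25.7, 21.2 and 177) and Ces1f (50.05, 40.2 and 267) also stood out in replicate 3. The epidermal filaggrin Flg was at 66.9, 398 and 4.83 CPM and the acute phase protein Saa3 at 40.2, 205 and 7.05 CPM, both highest in replicate 2, and Krt16, Srgn, Lce1f and Laptm5 had the same order. Replicate 1 stood out in the muscle genes Csrp3 (418, 90.7 and 55.6 CPM), Hspb6 (1138, 252 and 218) and Mustn1 (328, 73.0 and 41.4). Among the 3106 genes, 24, 38 and 22 were over 2-fold above the middle library in replicates 1, 2 and 3, and 2, 8 and 45 were over 2-fold below it.

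**Figure D3:**
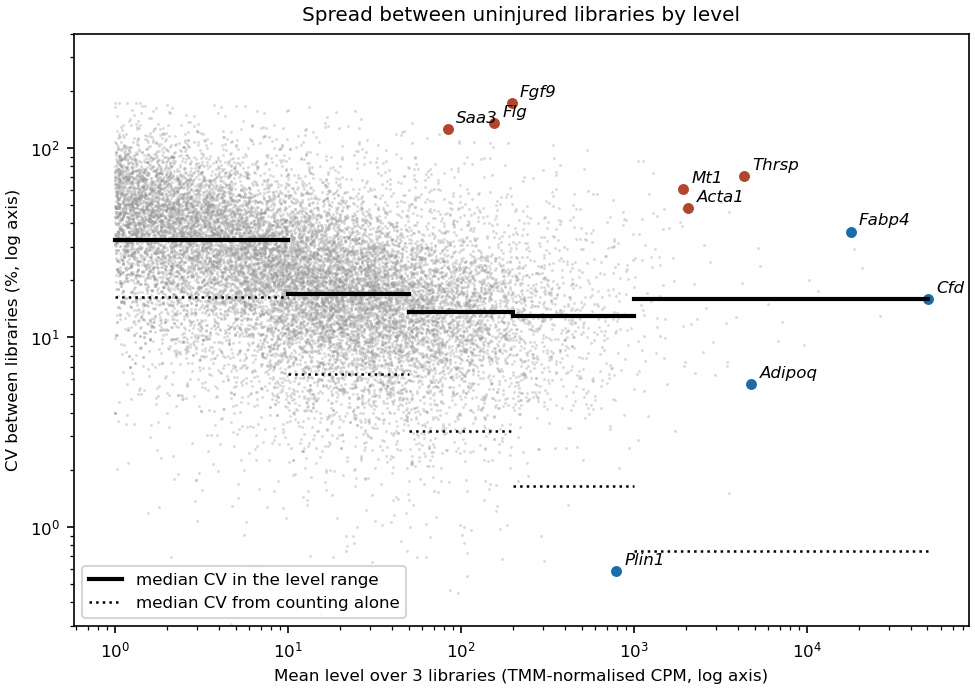
CV between the 3 uninjured libraries (%, log axis) against mean level (CPM, log axis), one grey point per gene, with the median CV (solid) and the CV from counting alone (dotted) in each range of level. Plin1 lies below the counting line and Adipoq below the median, while Fgf9, Flg, Saa3 and Thrsp lie far above it.

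Gene groups differed between libraries together. Of all 8515 genes, 29.5%, 30.7% and 39.8% were highest in replicates 1, 2 and 3, which is the background for the following counts (39.9%, 29.1% and 31.1% with library totals, 44.8%, 19.3% and 35.9% by TPM). Of 23 fatty acid synthesis genes at 10 CPM or more, 17 were highest in replicate 3 and 1 in replicate 2, and the median deviations from the gene's mean were -0.16, -0.52 and 0.36 on the log2 scale in replicates 1, 2 and 3. Thrsp, a lipogenic nuclear protein, was at 2959, 2173 and 7837 CPM and Fasn at 2835, 2394 and 5395 CPM. Me1 (649, 429 and 2084 CPM) and Acly (781, 389 and 2210 CPM), which supply NADPH and acetyl-CoA to the pathway and were chosen after their values were seen, had the same order. Scd1 did not, at 12614, 8706 and 9527 CPM. Of the triglyceride synthesis genes 10 of 13 were highest in replicate 3, and of the fatty acid oxidation genes 12 of 19. Of 21 genes of glucose uptake and insulin signalling, 8, 1 and 12 were highest in replicates 1, 2 and 3, but 10, 1 and 10 with library totals and 10, 0 and 11 by TPM, so few were highest in replicate 2 and a lean to replicate 3 depended on the scaling. Members of a list share their library, so these counts are not independent of each other.

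Marker genes of other cell types, and several further gene groups, differed in other ways. Of 21 skeletal muscle genes 16 were highest in replicate 1 and 0 in replicate 3. Of 16 keratinocyte genes 12 were highest in replicate 2, as were 9 of 10 macrophage genes, 10 of 13 antimicrobial genes and 12 of 18 fibrillar matrix genes. The 4 globin genes were all highest in replicate 3, as with Hbb-bs at 19.4, 24.0 and 52.2 CPM. Ribosomal protein genes were highest in replicate 2 in 29 of 45 and in replicate 1 in 0, and by TPM 23 were highest in replicate 2 and 22 in replicate 3. Immediate early and stress genes were highest in replicate 1 in 8 of 15, but their most abundant members, the metallothioneins Mt1 (1988, 3088 and 735 CPM) and Mt2 (103, 330 and 31.1 CPM), were highest in replicate 2 and lowest in replicate 3. Replicate 3, where lipid synthesis genes were highest, thus had the lowest summed muscle and keratinocyte levels, and the part of this in the result was not tested. Of 20 adipocyte identity genes 5, 7 and 8 were highest in replicates 1, 2 and 3, and this split moved with the scaling, to 8, 4 and 8 by TPM and to 3, 6 and 11 with DESeq2 size factors.

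**Figure D4:**
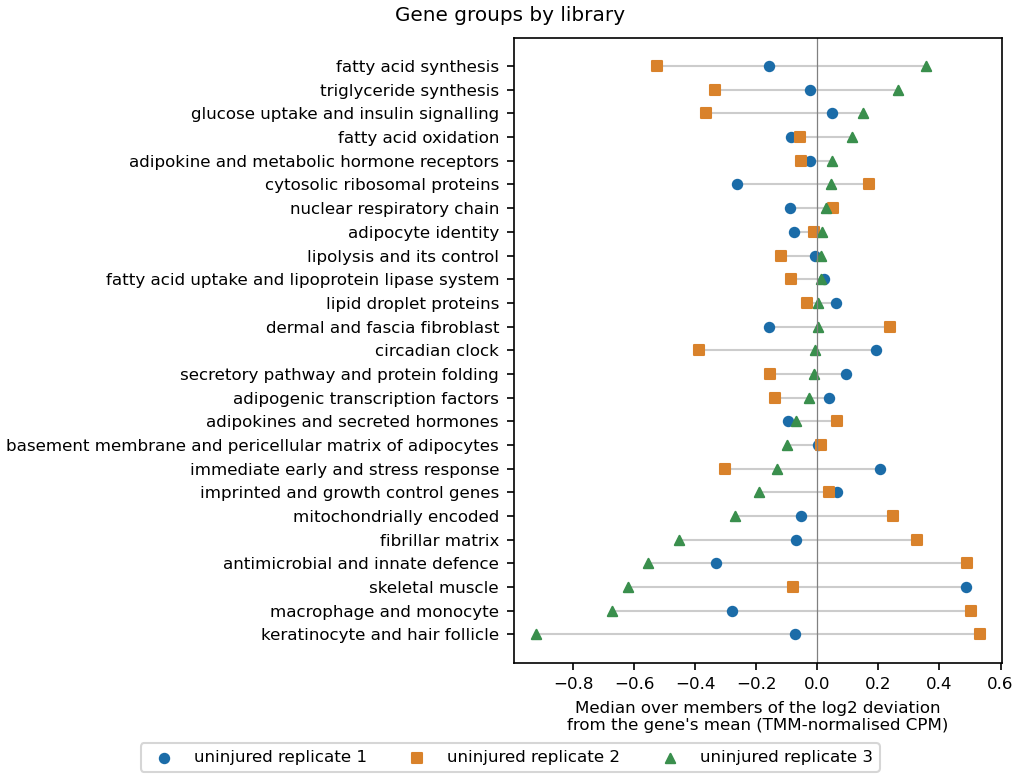
Median over list members at 10 CPM or more of the log2 deviation of each library from the gene's mean (CPM), one row per list with circle, square and triangle for replicates 1, 2 and 3. Fatty acid synthesis spreads from -0.52 in replicate 2 to 0.36 in replicate 3, skeletal muscle runs from 0.49 in replicate 1 to -0.62 in replicate 3, and adipocyte identity stays near 0.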

How the data were processed

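Tagged-ribosome RNA of 3 uninjured skin libraries was analysed. Per the labels' protocols, GFP-bearing polysomes were captured on antibody-coated beads, and 20 ng of their RNA went into the Takara SMART-Seq mRNA LP kit. The authors deposited unnormalised read counts for each gene, with 1 column per library. They were made with featureCounts 2.0.8, per the file headers. The submitters' processing notes also list STAR 2.7.10b, DESeq2 and mm10. How strand and multi-mapping reads were treated, and the annotation release, are not stated there. Only 1543 of 52147 identifiers found in GENCODE M21 had the same start there. Symbols were taken from a gene name list for 52093 of 53700 identifiers, and the 1607 without one held 0.0535% to 0.108% of counts.

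TPM were computed from the counts and the table's length column, and CPM with TMM factors over the 3 libraries only (edgeR 4.0.16, R 4.3.3), which were 1.04, 0.993 and 0.972. The steps that estimate the spread were tested on simulated data. No comparison between groups was made. An exact sign-flip test of 3 libraries cannot go below p = 0.25, so values are described without a test. The members, 42 gene lists (718 of 721 genes matched) and the naming rule were chosen with earlier results of these data known. Genes were named if they were 1 of the 4 markers, among the 30 highest with an established symbol, the 4 highest or the lowest of a list described (any member of a list of at most 12), among the 10 highest or 10 lowest in CV or the 10 with the largest gap of 1 library at 50 CPM or more, or abundant members of lists whose sum differed over 2-fold between libraries. Others are said to be chosen later. Depth limits low genes most. Alternatives were library totals and DESeq2 1.42.0 size factors, other minimum levels, unscaled CPM, median transcript lengths (added after seeing the data) and leaving out each library.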

Additional observations from a re-analysis of the deposited data

How the results depend on the processing

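Of 65 alternative values for 15 results, 55 stayed within an SD set for the result or within 1.5 times the main count. The others were these. The median CV of 15.5% was 21.5% over genes with a mean of at least 1 CPM and 51.5% with no filter, and ran from 10.9% to 15.1% when each library was left out. The common biological CV of 26.2% was 33.4% with no filter and 22.8% to 30.4% without 1 library. For both CVs the SD was that of the leave-one-out values themselves, so it is no independent measure of how steady they are. Adipoq ranked 14 by unscaled CPM, 15 by median transcript length and 10 to 12 without 1 library. The log2 ratio of adipocyte to muscle levels was 1.09 with list medians. Counts of list members highest in a library were rerun under library totals, DESeq2 size factors and TPM. Those for fatty acid synthesis, triglyceride synthesis, skeletal muscle, keratinocyte, macrophage, ribosomal protein, immediate early and glucose genes, each in 1 replicate, kept within 1.5 times. Others did not: nuclear respiratory chain genes went from 2, 17 and 11 of 30 highest in replicates 1, 2 and 3 to 10, 8 and 12 by TPM, and mitochondrially encoded genes from 10 of 11 in replicate 2 to 6. TPM shifted the median deviation of all 8515 genes to 0.08, -0.15 and 0.03 in replicates 1, 2 and 3. The number of genes detected ran from 9823 at 5 CPM to 16173 at 0.5 CPM. No paired analysis was possible because only 1 group was analysed and no result came from a test. With 7883909 to 17751689 counts per library, levels under about 0.4 CPM rest on 3 counts or fewer in the shallowest library.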

Other observations

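Some genes outside the gene groups were high or uneven and were noticed after their values were seen. Several processed pseudogenes ranked among the 100 highest by TPM, led by Gm12222 at rank 59 with a mean of 1636 TPM and Gm16418 at rank 63 with 1555 TPM, and whether their reads belong to parent genes was not tested. Cdh5, the cadherin of endothelium, was at 1.90, 69.2 and 2.74 CPM in replicates 1, 2 and 3, and Pecam1 at 38.9, 55.3 and 46.0 CPM, so both were highest in replicate 2 and by different amounts. The sebaceous gene Elovl4 was at 123, 264 and 23.4 CPM, lowest in replicate 3, as the summed keratinocyte level was.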
